A study of Mus musculus with 18 samples.

Results

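Of 55450 genes listed, 10 were taken by symbol as transcription factors of the mesoderm and endoderm lineages: T, Eomes, Mixl1, Gsc, Tbx6, Mesp1, Gata4, Gata6, Sox17 and Foxa2. They were matched by name. Poly(A) RNA was sequenced from the mouse embryonic carcinoma line P19, in 18 samples from 3 lines of 6 samples each. WT cells were Dicer (+/+). HetKO cells were Dicer (+/-), with a frameshift that truncates one allele. HM cells were Dicer (HM/-) and were made from a HetKO clone by editing the RNase IIIb hotspot change into the allele that remained, so HM cells carry the truncated allele as well. Each edited genotype is therefore represented by a single line. The labels name no differentiation treatment for these samples. Neither they nor the methods say whether the 6 samples of a line came from separate cultures. The p-values therefore set differences between lines against the spread between these samples, which may be technical.

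During gastrulation, epiblast cells pass through the primitive streak and become mesoderm or definitive endoderm, driven mainly by Nodal, WNT and BMP signals. T, Eomes, Mixl1 and Gsc are switched on in the streak or its anterior part, Tbx6 and Mesp1 mark mesoderm that has left it, and Gata4, Gata6, Sox17 and Foxa2 act in endoderm. Embryonic carcinoma cells resemble the epiblast and are known for their ability to differentiate along these lineages.

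The values were in TPM, transcript abundances that are scaled for gene length and to a fixed total per sample and keep no read depth, so no detection floor could be set. Dicer1 averaged 52.3 ± 2.09 TPM in WT, 48.0 ± 4.10 in HetKO and 40.3 ± 3.18 in HM (SD, n = 6 each). In all 18 samples the 8 pluripotency markers summed to 2915 to 3826 TPM, mostly from Pou5f1 (1814 to 2244 TPM). The markers were not alike: Zfp42 was below 1 TPM in 7 samples, and Nanog averaged 46.9 TPM in WT, 86.3 in HetKO and 18.8 in HM. In the other marker lists, 6 neuroectoderm genes summed to 35.8 to 120 TPM, 6 fibroblast genes to 10.2 to 40.1, 5 trophoblast genes to 1.92 to 7.94, and 4 blood and endothelium genes to 0.37 to 3.30. Hbb-bh1 was listed at 0 in every sample. Within a line, samples were paired where each was the most alike to the other. Over 678 abundant genes the robust SD of the log2 difference was 0.0488 to 0.107 within the 9 pairs and 0.0727 to 0.356 between other samples of a line. The pairs were replicates 1 and 4, 2 and 5, and 3 and 6 in WT and HetKO, and 1 and 4, 2 and 3, and 5 and 6 in HM. In WT the pairs were less distinct. There, replicates 2, 3, 5 and 6 differed by 0.0727 to 0.0940 across pairs, beside 0.0488 to 0.0745 within the WT pairs. Across pairs in HetKO, replicates 2 and 5 differed from the others by 0.269 to 0.356, and the others from each other by 0.163 to 0.176. The 10 factors, and the further lineage genes below, were not among the 678 genes. HetKO replicates 2 and 5 were singled out by their T and Eomes values, so results that rest on them are given with and without them. Their neuroectoderm sums (35.8 and 41.2 TPM) and fibroblast sums (10.2 and 10.9 TPM) were the lowest of all samples, and whether this bears on the results below was not tested.

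The 10 factors spanned a wide range of levels in the same cells. Eomes and T were the most abundant, Gsc, Tbx6 and Gata6 were present at a few TPM, and Mixl1 lay near 1 TPM. Gata4, Foxa2, Mesp1 and Sox17, 4 of the 10, stayed below 1 TPM in every sample of every line. In WT the order by mean was Eomes at 9.14 ± 1.55 TPM, T at 5.83 ± 2.13, Gsc at 4.28 ± 1.85, Tbx6 at 2.76 ± 0.656, Gata6 at 1.88 ± 0.900 and Mixl1 at 0.725 ± 0.133 (SD, n = 6 each). Each neighbour in this order overlapped the next, except that every WT value of Gata6 lay above every WT value of Mixl1. In HM the means of T and Eomes were 24.2 ± 11.98 and 18.5 ± 3.41 TPM, and every HM value of both stood above all HM values of Gsc, which averaged 3.76 ± 1.49 (SD, n = 6 each). The HM means of Mixl1 (1.32 ± 0.472 TPM), Tbx6 (0.860 ± 0.292 TPM) and Gata6 (0.597 ± 0.398 TPM) followed, with overlapping samples, so Mixl1 had moved ahead of both in the order of means.

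**Figure D1:**
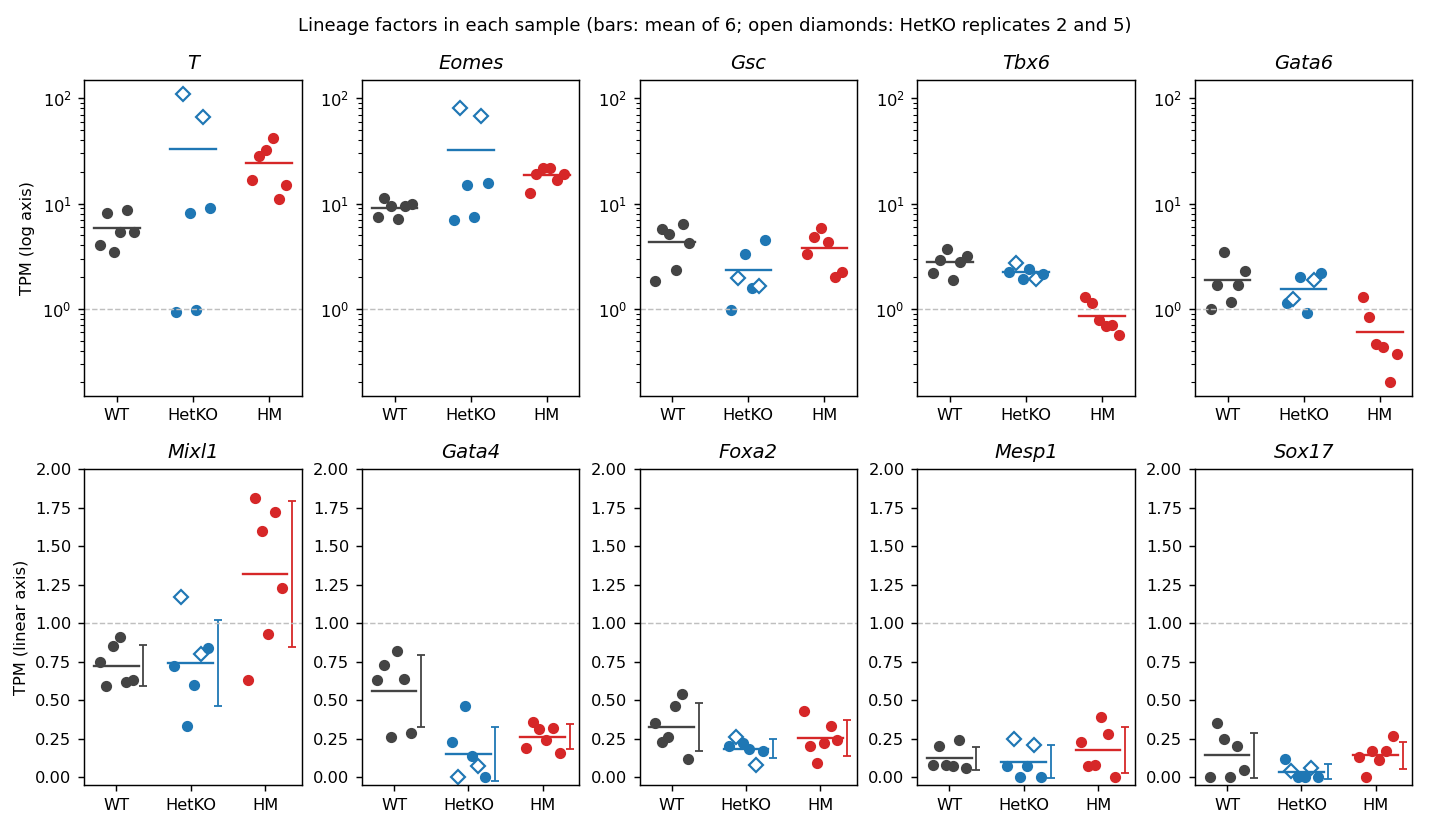
TPM of the 10 lineage factors in each of the 18 samples, on a log axis in the upper row and a linear axis in the lower row. Points are samples, horizontal bars are the mean of 6, open diamonds are HetKO replicates 2 and 5, vertical bars in the lower row are 1 SD, and the dashed line is 1 TPM. T and Eomes in HM lie above every WT sample, Tbx6 in HM lies below every WT sample, and HetKO replicates 2 and 5 reach 110 and 66.2 TPM for T.

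T and Eomes are both T-box factors, which bind DNA through a shared domain. The 250 bases before their RefSeq start sites in GRCm38.p6 are shown because both genes had the highest levels of the set and rose in HM. They lie at chr17:8434173-8434422 and chr9:118477939-118478188, both on the plus strand. Capitals mark matches on either strand to CCAAT, to CTTTG (the core bound by TCF and LEF factors, CAAAG when read on the other strand) and to AGGTGT (the core that T-box factors bind).
T: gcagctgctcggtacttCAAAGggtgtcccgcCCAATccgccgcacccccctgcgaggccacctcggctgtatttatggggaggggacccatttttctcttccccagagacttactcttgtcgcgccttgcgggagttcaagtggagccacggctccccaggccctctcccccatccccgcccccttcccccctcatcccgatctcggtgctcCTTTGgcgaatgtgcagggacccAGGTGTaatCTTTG
Eomes: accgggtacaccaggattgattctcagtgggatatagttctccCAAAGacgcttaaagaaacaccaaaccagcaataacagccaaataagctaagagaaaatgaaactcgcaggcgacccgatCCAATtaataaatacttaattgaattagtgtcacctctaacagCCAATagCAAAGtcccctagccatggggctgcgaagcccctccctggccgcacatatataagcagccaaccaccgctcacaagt
No match overlapped another. The T window held CCAAT once, CTTTG on 3 occasions, of which the nearest began 5 bases before the start, and AGGTGT once, 14 bases before it. The Eomes window held CCAAT at 127 and 84 bases before the start and CTTTG on the other strand at 207 and 77 bases. Among 32851 mouse promoter windows of the same length, 33.8% held CCAAT, 48.6% held CTTTG and 11.8% held AGGTGT. Also searched, with no match in either window, were TATAAA (in 12.4% of windows), the SMAD motif CAGAC (42.2%) and the FOXH1 motif AATNNACA (10.9%). A match describes letters and not a bound site.

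T (ENSMUSG00000062327.10, chromosome 17, 8434423 to 8442496, plus strand), the brachyury gene needed for posterior mesoderm and notochord, was higher in HM than in WT. In WT replicates 1 to 6 its TPM was 4.02, 8.20, 3.45, 5.31, 8.60 and 5.40. In HM it was 16.6, 28.4, 32.4, 41.9, 10.9 and 15.0. Every HM sample lay above every WT sample, and replicate 4 held the highest HM value and replicate 5 the lowest. T rose by 1.80 on the log2(TPM + 1) scale, which understates the change of genes at low TPM (standard error 0.31, limma adjusted p = 0.000418). In HetKO replicates 1 to 6 its TPM was 0.94, 110, 8.17, 0.97, 66.2 and 9.13. The pair 1 and 4 held the lowest T values of all 18 samples, the pair 2 and 5 the highest, and the pair 3 and 6 lay near the top of the WT range. The mean of HetKO replicates 2 and 5 was 88.3 TPM, 18.4 times the 4.80 ± 4.46 (SD, n = 4) of the other HetKO samples. The order of the lines therefore turned on the summary, because the HetKO mean of 32.6 TPM stood above that of HM, whereas the HetKO median of 8.65 stood below the HM median of 22.5. Between HetKO and WT the log2 fold change was 0.84 (95% interval -1.11 to 2.80, limma adjusted p = 0.563), and without replicates 2 and 5 it was -0.60 (limma adjusted p = 0.544). Between HM and HetKO it was 0.96 (95% interval -1.04 to 2.95, limma adjusted p = 0.441), and without them 2.39 (standard error 0.55, limma adjusted p = 0.00507). Replicates 2 and 5 were set apart by their own T and Eomes values, so the p-value without them is no test of T.

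Eomes (ENSMUSG00000032446.14, chromosome 9, 118478212 to 118486132, plus strand), which is needed for definitive endoderm and for mesoderm cells to leave the streak, followed T. WT replicates 1 to 6 had 7.46, 11.2, 9.53, 7.14, 9.51 and 9.98 TPM. In HM it was 12.7, 18.9, 22.0, 21.6, 16.9 and 18.9. All HM samples again lay above all WT samples, with a narrower spread than T. Eomes rose by 0.94 (standard error 0.14, limma adjusted p = 0.000145). In HetKO replicates 1 to 6 it was 7.02, 80.8, 15.0, 7.44, 67.9 and 15.5. The HetKO pair 1 and 4 was as low as WT, the pair 3 and 6 lay above it, and the pair 2 and 5 was the highest of all samples. Its mean in replicates 2 and 5 was 74.3 TPM, 6.61 times the 11.2 ± 4.64 (SD, n = 4) of the others. Eomes stood at 1.10 between HetKO and WT (95% interval -0.05 to 2.26, limma adjusted p = 0.198), and at 0.20 without these replicates (limma adjusted p = 0.652). Between HM and HetKO it stood at -0.17 (95% interval -1.33 to 0.99, limma adjusted p = 0.830). Without them it was 0.73 (standard error 0.23, limma adjusted p = 0.0247). This p-value is likewise no test of Eomes, because replicates 2 and 5 were set apart by their own T and Eomes values. In a single fit of all 3 lines, which takes its spread from HetKO too, the differences of T and Eomes between HM and WT no longer passed, with limma adjusted p of 0.0676 and 0.0987. An antisense gene, Gm33460, overlaps Eomes at a mean of 0.949 TPM, and the strand setting of the counting is not stated, although the kit marks strand.

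Mixl1 (ENSMUSG00000026497.7, chromosome 1, 180693043 to 180697034, minus strand), a homeobox factor of the streak, had values of 0.75, 0.59, 0.85, 0.91, 0.62 and 0.63 TPM in WT replicates 1 to 6. In HM they were 0.63, 1.81, 1.6, 0.93, 1.72 and 1.23. Of the 6 HM samples, 5 lay above every WT sample, and replicate 1 lay within the WT range. Mixl1 reached the mean of 1 TPM needed for a test only in the comparisons with HM, where it was higher. It rose by 0.40 between HM and WT (standard error 0.15, limma adjusted p = 0.0425; 0.0512 with no filter on low TPM, 0.0856 with the replicate number as a block and 0.218 on the means of alike pairs). That call was lost when HM replicate 6 or any of WT replicates 1, 2, 3, 5 and 6 was left out, with limma adjusted p of 0.0549 to 0.0800, and without HM replicate 2, 3 or 5 its mean was too low for a test. In HetKO replicates 1 to 6 the values were 0.72, 1.17, 0.33, 0.60, 0.80 and 0.84 TPM. HetKO overlapped both other lines, at 0.40 between HM and HetKO (95% interval 0.02 to 0.78, limma adjusted p = 0.0923).

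Gsc (ENSMUSG00000021095.5, chromosome 12, 104471209 to 104473330, minus strand), the organizer homeobox gene goosecoid, lies 214.4 kb from Dicer1. WT replicates 1 to 6 had 1.85, 5.69, 5.16, 2.32, 6.44 and 4.24 TPM, with HetKO at 0.98, 1.98, 3.35, 1.58, 1.64 and 4.5 and HM at 3.32, 4.76, 5.83, 4.35, 2.01 and 2.26. The 3 lines overlapped, and within each line the pairs of alike samples set the high and the low values. Unlike for T and Eomes, HetKO replicates 2 and 5 were not the highest of their line for Gsc. Their mean of 1.81 TPM was 0.695 times that of the other HetKO samples. Both lay above replicates 1 and 4 and below replicates 3 and 6. Its log2 fold change was -0.13 between HM and WT (95% interval -0.72 to 0.46, limma adjusted p = 0.717). It was -0.66 between HetKO and WT (95% interval -1.297 to -0.031, limma adjusted p = 0.161) and 0.54 between HM and HetKO (95% interval -0.05 to 1.12, limma adjusted p = 0.141).

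Tbx6 and Gata6 went the other way. Tbx6 (ENSMUSG00000030699.16, chromosome 7, 126781483 to 126785560, plus strand) is a T-box factor that commits cells to paraxial mesoderm. Its TPM was 2.19, 2.89, 3.68, 1.86, 2.79 and 3.15 in WT replicates 1 to 6 and 1.3, 1.14, 0.78, 0.68, 0.70 and 0.56 in HM. No HM sample reached the lowest WT value, and 4 of the 6 HM samples were below 1 TPM. Tbx6 fell by 1.01 (standard error 0.15, limma adjusted p = 0.000164). In HetKO replicates 1 to 6 it was 2.26, 2.73, 1.92, 2.41, 1.94 and 2.15 TPM, and replicates 2 and 5 were not apart. HM also lay entirely below HetKO, and Tbx6 fell by 0.81 there (standard error 0.13, limma adjusted p = 0.000915), although not with pair means as replicates (limma adjusted p = 0.0857). Between HetKO and WT it stood at -0.20 (95% interval -0.49 to 0.08, limma adjusted p = 0.336). Its promoter window, shown as that of the T-box factor that fell, lies at chr7:126781233-126781482 on the plus strand, with capitals at matches to CAGAC and TATAAA and none to CTTTG or AGGTGT.
Tbx6: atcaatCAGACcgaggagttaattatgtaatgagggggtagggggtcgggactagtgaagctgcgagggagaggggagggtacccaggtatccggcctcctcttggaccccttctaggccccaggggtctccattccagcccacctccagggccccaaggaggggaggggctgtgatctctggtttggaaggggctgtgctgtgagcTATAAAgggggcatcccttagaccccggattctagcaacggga
CTTTG was also in the windows of Gsc, Mesp1 and Foxa2, which did not pass in any comparison, and AGGTGT was also in that of Mesp1.

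Gata6 (ENSMUSG00000005836.10), a zinc-finger factor of primitive and definitive endoderm, had 1.00, 1.68, 3.47, 1.16, 1.68 and 2.27 TPM in WT replicates 1 to 6. In HM it had 1.29, 0.83, 0.46, 0.43, 0.20 and 0.37 TPM. HM replicate 1 lay inside the WT range and the other 5 HM samples lay below it. Gata6 fell by 0.83 between HM and WT (standard error 0.22, limma adjusted p = 0.00625, and 0.0752 on the means of alike pairs). In HetKO replicates 1 to 6 it had 1.13, 1.23, 1.99, 0.92, 1.88 and 2.20 TPM. These values covered much the same range as WT, at -0.14 (95% interval -0.59 to 0.31, limma adjusted p = 0.679). Between HM and HetKO Gata6 fell by 0.69 (standard error 0.19, limma adjusted p = 0.0165), a call lost with the replicate number as a block (limma adjusted p = 0.0517) and on the pair means (0.181). Without HetKO replicates 2 and 5, or without replicate 3 or 6 alone, its mean in that comparison was too low for a test. The gene 1010001N08Rik, which overlaps Gata6 on the opposite strand, averaged 0.0339 TPM.

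The remaining 4 factors were listed near 0. Gata4 (ENSMUSG00000021944.15, chromosome 14, 63198922 to 63271692, minus strand), an endoderm and heart factor, had 0.63, 0.73, 0.26, 0.82, 0.64 and 0.29 TPM in WT replicates 1 to 6, 0.23, 0, 0.46, 0.14, 0.07 and 0 in HetKO, and 0.19, 0.36, 0.31, 0.24, 0.32 and 0.16 in HM. WT held the highest values and overlapped both other lines. With genes tested down to a mean of 0.1 TPM, Gata4 was lower in HM (log2 fold change -0.29, limma adjusted p = 0.0370) and in HetKO (-0.44, limma adjusted p = 0.0441) than in WT, although the call in HetKO was lost with no filter on low TPM. The 95% interval between HM and HetKO was -0.06 to 0.36 (limma adjusted p = 0.287). In those fits 39.8% of all genes tested passed in the comparison of HM with WT, 8.4% in HetKO with WT and 26.1% in HM with HetKO.

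Foxa2 (ENSMUSG00000037025.11, chromosome 2, 148042877 to 148046969, minus strand), the forkhead factor of node and endoderm, ranged from 0.12 to 0.54 TPM in WT, 0.08 to 0.26 in HetKO and 0.09 to 0.43 in HM. Mesp1 (ENSMUSG00000030544.5, chromosome 7, 79792241 to 79793788, minus strand), the earliest marker of heart mesoderm, ranged from 0.06 to 0.24, from 0 to 0.25 and from 0 to 0.39 TPM. Sox17 (ENSMUSG00000025902.13, chromosome 1, 4490931 to 4497354, minus strand), the endoderm HMG-box factor, ranged from 0 to 0.35, from 0 to 0.12 and from 0 to 0.27 TPM. The lines overlapped for all of them. Zeros were listed for Sox17 in 2 WT, 3 HetKO and 1 HM samples, and for Mesp1 in 2 HetKO samples and 1 HM sample. In the fits down to 0.1 TPM neither Foxa2 nor Mesp1 passed in any comparison. Sox17 reached that mean only between HM and WT and did not pass, at 0.01 (95% interval -0.19 to 0.20, limma adjusted p = 0.967). Mesp1 was higher in HetKO replicates 2 and 5, at 0.25 and 0.21 TPM, than in the other HetKO samples, which reached 0.07. WT replicates 2 and 5 had similar values (0.20 and 0.24 TPM), and HM replicates 4 and 5 had 0.39 and 0.28.

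In the 3 comparisons, 6, 5 and 6 of the 10 factors averaged at least 1 TPM and were tested. Between HM and WT, 3 rose (T, Eomes and Mixl1) and 2 fell (Tbx6 and Gata6), where 19.4% of all 14043 genes tested were higher in HM and 32% were lower. Mixl1 averaged at least 1 TPM only in HM, and Tbx6 and Gata6 only in WT and HetKO, so each passed the filter through where it was high. With no filter, Tbx6 and Gata6 still passed between HM and WT and Mixl1 did not (limma adjusted p = 0.000487, 0.0119 and 0.0512). In 3 of the 6 (T, Eomes and Tbx6) the HM and WT samples did not overlap, as in 28.5% of all genes. Their median log2 fold change was 0.14, beside -0.09 over all genes. Between HetKO and WT none of 5 passed by limma, 1 (Gsc) had an unadjusted p under 0.05, and none was free of overlap, where 3.71% of 13999 genes were higher, 6.44% were lower and 8.21% did not overlap. Between HM and HetKO, Tbx6 and Gata6 fell and none of 6 rose by limma, 3 of them having an unadjusted p under 0.05, where 14% of 13762 genes were higher, 20.6% were lower and 15.5% did not overlap. Tbx6 was the single factor without overlap in that comparison. Each pair of comparisons shares one line's samples. The directions of these calls in HM against WT and against HetKO were the same with samples centred on their median and after quantile normalization. Centring moved the median of all genes between HM and WT from -0.09 to 0.08 and the share of higher genes among those called from 37.7% to 61%.

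**Figure D2:**
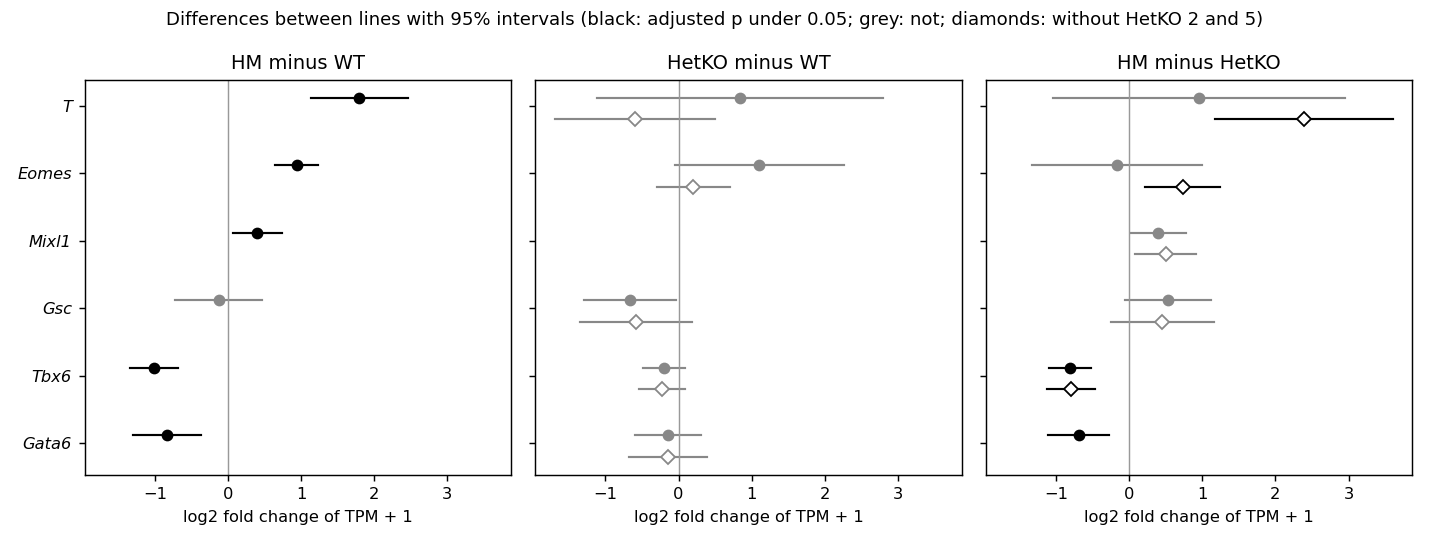
Log2 fold change of TPM + 1 (x axis) for the 6 lineage factors tested, in the 3 comparisons of lines, with 95% intervals from limma. Circles use all samples and black marks an adjusted p under 0.05. Open diamonds leave out HetKO replicates 2 and 5, which were set apart by their T and Eomes values. T and Eomes lie right of 0 and Tbx6 and Gata6 left of it between HM and WT, and the intervals of T against HetKO shorten once the replicates are left out.

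HetKO replicates 2 and 5 were the 2 highest of all 18 samples for T and Eomes, 2 of the 5 factors that averaged at least 1 TPM. These samples were singled out by their T and Eomes values, so that count was fixed in advance and tests nothing. Over all 13955 genes at that level, replicates 2 and 5 were the 2 highest for 894, or 6.41%. Among 113 further genes of these lineages, the same held for 8 of 60 (13.3%), named here because of that order. The genes were listed by textbook role but with earlier results of these data known, and the samples were singled out by T and Eomes. This share is therefore no test of these lineages. Wnt3, the WNT ligand of the forming streak, had 11.65 and 10.95 TPM in these samples and at most 4.18 in any other. Sp5, a target of WNT signalling, had 19.8 and 12.8 TPM and at most 0.82 elsewhere. Fst, which encodes follistatin, an activin antagonist, had 204 and 185 TPM and at most 67.8 elsewhere. Nodal, the ligand upstream of Eomes and Mixl1 in the embryo, had 92.7 and 84.1 TPM and at most 55.1 elsewhere. Trh, Lhx1, Bmpr1a and Ldb1 completed the set. Evx1, a homeobox gene of the posterior streak, had 3.20 and 2.23 TPM and at most 0.57 elsewhere, though its mean was under the level needed for this count. Gsc, Tbx6 and Gata6 did not share the order.

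Other genes of the same lists went the other way in these samples. HetKO replicates 2 and 5 were the 2 lowest of all 18 for 16 of the 60 further genes (26.7%), beside 9.72% of all genes. Among the 5 factors it was 0, though T and Eomes had set these samples apart as high. The share among the further genes is again no test, because of how they were listed. Hes7 and Dll1, Notch pathway genes of the presomitic mesoderm, had 0.51 and 0.57 TPM and 0.52 and 0.77 TPM there and at least 1.23 and 1.29 elsewhere. Lefty2, a Nodal antagonist, had 0.63 and 0.40 TPM and at least 1.45 elsewhere. Cldn6 had 26.4 and 26.8 TPM and at least 48.5 elsewhere. These were named after their values were seen. Whether these samples differed in culture state, day or clone is not given by the labels.

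**Figure D3:**
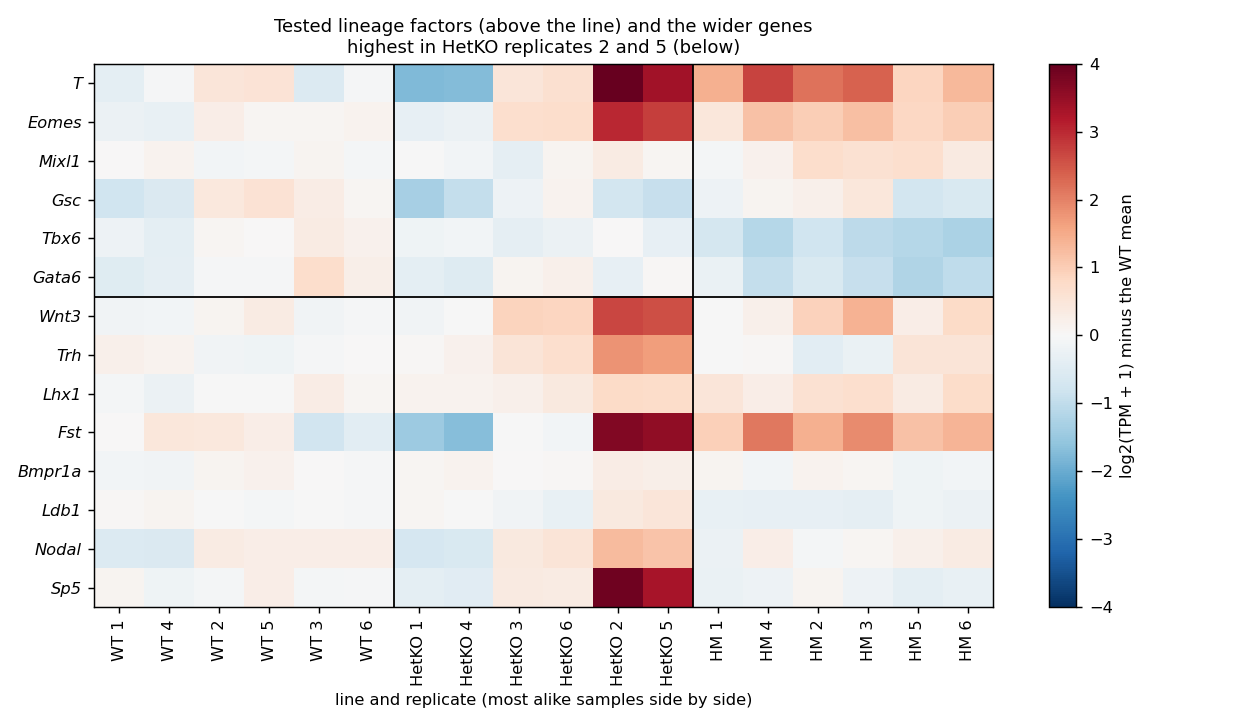
Log2(TPM + 1) minus the WT mean for the 6 tested lineage factors (above the line) and the 8 further lineage genes that were highest in HetKO replicates 2 and 5 (below), one column per sample with the most alike samples side by side. T, Eomes, Wnt3, Fst and Sp5 are darkest red in HetKO replicates 2 and 5, T and Fst are red in all HM samples, and Tbx6 is blue in all HM samples.

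Within the pairs of alike samples T still varied. The higher T value was 2.53 times the lower in HM replicates 1 and 4, 1.67 times in HetKO replicates 2 and 5, and 1.03 to 1.57 times in the other 7 pairs. Eomes differed by 1.70 times in HM replicates 1 and 4 and by 1.04 to 1.19 times in the others. Gata6 differed by 3.00 times in HM replicates 1 and 4 and Tbx6 by 1.91 times, with T and Eomes higher and Tbx6 and Gata6 lower in replicate 4.

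Across the 18 samples the genes whose log2(TPM + 1) followed T most closely were Fst (Pearson r = 0.97), Lmo4 (0.95) and Zfp36l1 (0.94), and over the 16 samples without HetKO replicates 2 and 5 the same coefficients were 0.95, 0.94 and 0.90. For Eomes they were Sp8 (0.96), Sall3 (0.95) and Psmc6 (0.94), and these were 0.83, 0.84 and 0.88 over the 16. For Tbx6 they were Lzts2 (0.96), Itga6 (0.95) and Hgsnat (0.95), all lower in HM. For Gata6 they included Fam45a (0.90) and Satb1 (0.89), and for Gsc they were Mark1 (0.90), Adipor1 (0.87) and Ndfip2 (0.85). These coefficients describe samples that share lines and pairs.

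RT-qPCR of the same study read Mixl1, Tbx6 and Gata4 before and after differentiation, and its primers are shown, 5′ to 3′, because they define which part of each transcript that assay reads.
Mixl1 forward: cgtcttccgacagaccatgta
Mixl1 reverse: ttctggaaccacacctggat
Tbx6 forward: ctccttccgatttcctgagac
Tbx6 reverse: gatcttcagctgtgtgatccta
Gata4 forward: cagcagcagcagtgaagagatg
Gata4 reverse: accaggctgttccaagagtcc
Matched to the GENCODE M21 transcripts, the Mixl1 primers bound a product of 99 bases in its 1 transcript, and the Tbx6 primers one of 76 bases in 2 of 2. The Gata4 primers bound one of 225 bases in 3 of its 6 transcripts. The letters of the Mixl1 reverse primer also occur in Sebox, where the forward primer has no match. The TPM values sum all transcripts of a gene, so the Gata4 TPM covers transcripts that its primers do not amplify.

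The RNase IIIb domain of Dicer makes the cut that frees the 5p arm of a miRNA hairpin, and the hotspot change lies in that domain. The 3′ UTRs of 9 factors were searched for the heptamer that pairs with the seed (positions 2 to 8, in capitals) of 10 miRNAs, 6 from the 5p arm and 4 passenger strands of the 3p arm. Those with a match are shown with RefSeq mature sequences.
mmu-miR-7a-1-3p: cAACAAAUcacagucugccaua
mmu-miR-17-3p: aCUGCAGUgagggcacuuguag
mmu-miR-20b-3p: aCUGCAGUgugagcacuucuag
mmu-miR-15b-5p: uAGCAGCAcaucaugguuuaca
mmu-miR-16-5p: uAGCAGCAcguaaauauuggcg
The 3p strands of miR-17 and miR-20b share a seed, as do miR-15b-5p and miR-16-5p. The matches, with the heptamer in capitals, were these.
Mixl1, miR-15b-5p and miR-16-5p: ccataactggaTGCTGCTtttttttt
Eomes, miR-7a-1-3p: tggaataaaccATTTGTTgtagggct
Eomes, miR-17-3p and miR-20b-3p: gcaaaaccacaACTGCAGttaagagg
Tbx6, miR-7a-1-3p: aagccatgccaATTTGTTctcaggat
Such heptamers are common, in 20.3% of 21028 mouse 3′ UTRs for TGCTGCT, 19.3% for ATTTGTT and 13.7% for ACTGCAG. The ATTTGTT heptamer stood in Eomes, which rose in HM, and in Tbx6, which fell. T, Gsc, Mesp1, Gata4, Sox17 and Foxa2 had no match to any of the 10. A match is a description of letters, and no miRNA was measured in these libraries.

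The further 113 genes covered the same lineages and the signals upstream of them. Between HM and WT, 61 were tested, 10 rose and 14 fell, beside 19.4% and 32% of all genes, and their median log2 fold change was -0.09, as over all genes. The split followed the scaling, with 13 higher and 7 lower when samples were centred and 12 and 11 after quantile normalization. Of 36 further streak and mesoderm genes, 14 were tested, 4 rose and 2 fell. Lhx1, among the 4, passed the filter through HM (0.828 TPM in WT and 1.62 in HM). Twist1, a mesenchymal bHLH factor, rose from 4.30 ± 1.29 to 14.3 ± 6.87 TPM (SD, n = 6 each, limma adjusted p = 0.00110) with no overlap, and Wnt3 rose by 0.59 (limma adjusted p = 0.0407). Hes7 and Dll1 fell by 0.88 and 0.57 (limma adjusted p = 0.00138 and 0.0113). Of 18 definitive endoderm genes, 9 were tested, 2 rose and none fell by limma, and 2 had an unadjusted p under 0.05. These were Prdm1, a zinc-finger repressor, from 3.03 ± 0.818 to 7.38 ± 2.24 TPM (SD, n = 6 each, limma adjusted p = 0.000561), and Foxa3, a relative of Foxa2, by 0.41 (limma adjusted p = 0.0491). Of 22 extraembryonic endoderm genes, 13 were tested, 1 rose and 5 fell, where 32% of all genes fell. Fst rose by 1.484 (limma adjusted p = 0.000288), and Apoe, Lrp2, Lama1 and Sparc fell by 0.93, 0.76, 0.50 and 0.21 (limma adjusted p = 0.00145, 0.0112, 0.00369 and 0.0309).

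Among 22 signalling inputs and cofactors of the streak, 21 were tested between HM and WT, 2 rose and 5 fell, again beside 19.4% and 32% of all genes. Lef1, a transcription factor of WNT signalling that acts on T in the embryo, had the largest change. Its TPM ranged from 6.45 to 9.43 in WT (median 7.97), from 4.92 to 15.4 in HetKO (median 6.18) and from 20 to 50.5 in HM (median 28.8). Every HM sample lay above all others, and Lef1 rose by 1.89 against WT (standard error 0.20, limma adjusted p = 1.79e-05) and by 1.92 against HetKO (standard error 0.30, limma adjusted p = 0.000569). Its HetKO replicates 2 and 5, at 15.4 and 13.2 TPM, were the highest of that line. Tcf7, a relative of Lef1, fell by 0.49 (limma adjusted p = 0.000485), and the SMADs that carry Nodal signals went both ways. Smad3 and Smad4 fell by 0.50 and 0.32 (limma adjusted p = 0.0173 and 0.0150), and Smad2, named after its value was seen, rose by 0.32 (limma adjusted p = 0.00234). Nodal stood at 39.2 ± 10.8 TPM in WT and 40.7 ± 6.00 in HM (SD, n = 6 each). Ctnnb1 (beta-catenin) and Tdgf1 (the Nodal co-receptor Cripto) stood at 0.04 and 0.02 and did not pass. Of 24 other T-box, GATA, FOXA and related family members, 5 were tested, 2 rose (Tbx21 by 0.65, Foxa3) and 2 fell (Tbx1 by 1.15, Mga by 0.31, limma adjusted p = 0.00565 and 0.00121). Tbx21 passed the filter through HM, the line where it was high (0.58 TPM in WT and 1.47 in HM). T-box genes, T, Eomes and Tbx6 included, moved in both directions.

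Between HetKO and WT, 61 of the further genes were tested. None rose by limma and 9 fell, beside 3.71% and 6.44% of all genes, and 21 had an unadjusted p under 0.05 in either direction. Their median was -0.21, beside -0.03 over all genes. Among the 9, Lama1 and Pdgfra (1.74 TPM in WT and 0.705 in HetKO) passed the filter through WT, the line where they were high. Pdgfra was named after its values were seen. The 9 included Cldn6, a tight junction gene, from 99.2 ± 10.4 to 47.9 ± 17.1 TPM (SD, n = 6 each, limma adjusted p = 0.00689), and Sparc by 0.45 (limma adjusted p = 0.000402). Apoe and Epcam fell by 0.59 and 0.27 (limma adjusted p = 0.0385 and 0.0127). Lama1, a laminin of the basement membrane made by endoderm, was listed at 0 in 5 of 6 HetKO samples and at 0.01 TPM in the sixth, at 2.22 to 3.33 TPM in WT and at 1.29 to 2.26 TPM in HM, the line made from a HetKO clone. Between HM and HetKO, 60 were tested, 8 rose and 4 fell, beside 14% and 20.6% of all genes, with a median of 0.13 beside -0.05. When samples were centred 16 were higher and 2 lower, and after quantile normalization 11 and 4. Prdm1, Foxa3, Cldn6 and Hhex rose by 1.502, 0.70, 0.90 and 0.67 (limma adjusted p = 0.000812, 0.0111, 0.0354 and 0.0140), 4 of the 9 definitive endoderm genes tested. Foxa3 passed the filter through HM, the line where it was high (0.943 TPM in HetKO and 2.19 in HM). Tbx1 fell by 1.41 (limma adjusted p = 0.000955). These comparisons share their HetKO samples, and 2 of those stood apart.

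**Figure D4:**
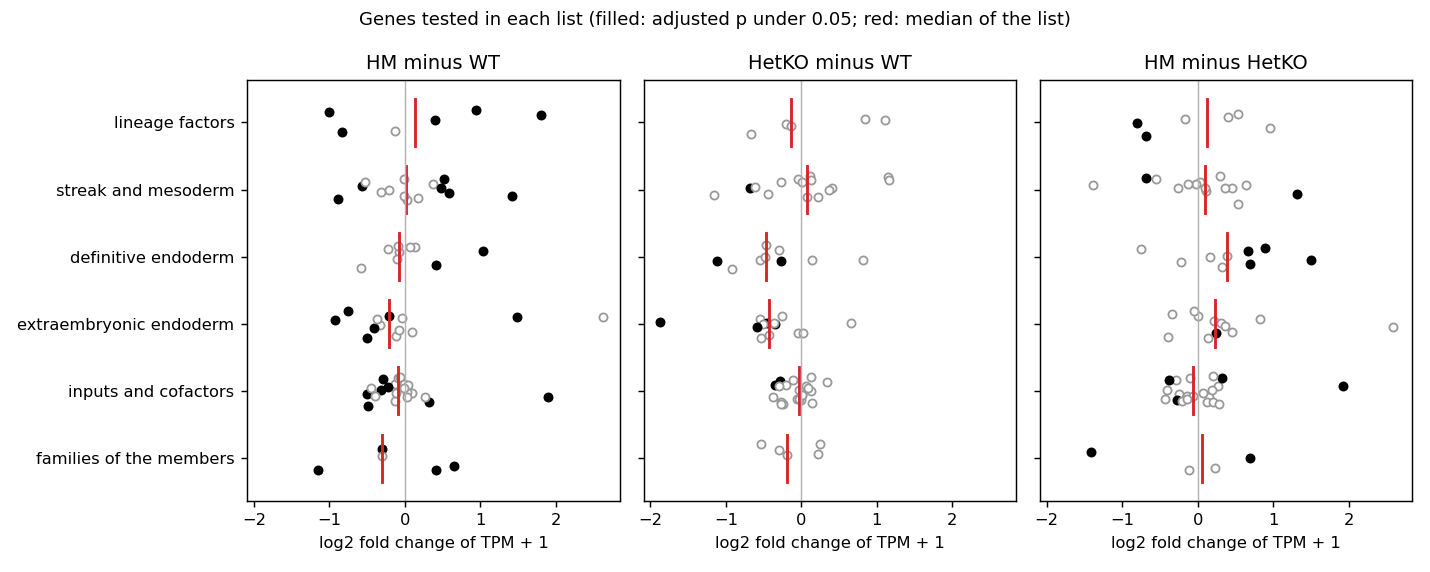
Log2 fold change of TPM + 1 (x axis) of every tested gene in the lineage factors and in 5 lists of related genes, for the 3 comparisons of lines, with filled points for an adjusted p under 0.05 and a red line at the median of each list. The lineage factors spread to both sides between HM and WT, and filled points left of 0 are the only ones between HetKO and WT.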

How the data were processed

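The authors joined the read pairs (BBMerge), estimated gene abundance (RSEM) and deposited it as TPM for 55450 genes in 18 samples. The submitters' processing notes name cutadapt, STAR and the build mm10. Gene identifiers matched GENCODE M21 of GRCm38, which gave positions and 3′ UTRs. TPM keeps no depth, so whether alike samples differ beyond sampling noise could not be tested, and all were kept as replicates.

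Each comparison used its own 12 samples and the genes averaging at least 1 TPM in them. Values of log2(TPM + 1) were compared by limma 3.58.1 (R 4.3.3), with the prior variance following expression and p-values adjusted by the Benjamini-Hochberg method over all genes tested (threshold 0.05). The code was tested on simulated data. Promoter sequences (6 of the 10 factors matched) and miRNAs came from RefSeq tables.

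The factors and the lists of further genes were chosen with earlier results of these data known. Named were all 10 factors, and in each list the genes that passed in any comparison, up to 4 by size of change between HM and WT, with the 2 most abundant. For each factor averaging at least 1 TPM over all samples, the 3 genes most alike by Pearson r were added, without model gene names. Some genes that this rule names are not reported here. Sp5, Nodal, Lhx1, Bmpr1a, Ldb1, Evx1, Smad2, Lefty2, Pdgfra and Cited1 were named after their values were seen. Alternatives were other filters, a pseudocount of 0.1, 2 rescalings, a single fit of all lines, a 1.5-fold limit, the replicate number as a block, pair means and left-out samples.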

Additional observations from a re-analysis of the deposited data

How the results depend on the processing

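Of 156 values for the factors under the alternatives that left no single sample out, 139 kept their direction and side of the threshold, 9 lost the threshold, 3 gained it and 5 reversed. The single fit of all lines called 3 factors between HM and WT. Means of alike pairs called 3 factors in HM against WT and 0 against HetKO, where 0 further lineage genes also passed. The further genes called were 10 in HM against WT and 1 in HetKO against WT, and over all genes 3316, 34 and 417 passed in the 3 comparisons, against 7220, 1421 and 4765 with all samples. With fewer samples in that fit, lost calls do not show weaker effects. A limit of at least 1.5-fold left 3008, 666 and 2099 genes, with 10 further lineage genes in HM and 4 in HetKO, both against WT. The filter at a mean of 0.1 TPM called 1 factor between HetKO and WT, and it and no filter each called 23 further genes between HM and HetKO.

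The reversals not past the threshold on either side were Gsc between HM and WT when centred (0.05) or quantile normalized (0.11), Gata6 between HetKO and WT when quantile normalized (0.044) and T between HetKO and WT without HetKO replicates 2 and 5 (-0.60). Eomes between HM and HetKO reversed and passed without them (0.73), and reversed without HetKO replicate 2 or 5 alone (0.22 and 0.17), with a lowest value of -0.45 when any other sample was left out. HetKO replicates 2 and 5 were set apart by their T and Eomes values, so passing without them is no test of Eomes. Mixl1 passed between HM and HetKO when centred (0.52), in the single fit (0.40) and without HM replicate 1 (0.50). The cause was not tested. Leaving out each sample in turn gave 4 to 5, 0 to 0 and 1 to 3 factors in the comparisons of HM with WT, HetKO with WT and HM with HetKO, 21 to 27, 5 to 12 and 9 to 14 further genes, and 6541 to 7361, 959 to 1518 and 3655 to 5213 genes in all. The lowest value of 1 factor came without HetKO replicate 3 or 6, where Gata6 was not tested, and the lowest count of 5 further genes between HetKO and WT came without WT replicate 2, 3, 5 or 6.

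Centring or quantile normalization moved the share of higher genes among those called from 36.5% to 50.7% or 48.1% between HetKO and WT, from 40.4% to 60.9% or 49.3% between HM and HetKO, and from 37.7% to 61% or 51.1% for HM against WT.

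The labels give replicate numbers 1 to 6 in each line. Samples of the same number correlated weakly on average, at 0.00337 (HM with WT), 0.0623 (HetKO with WT) and 0.0194 (HM with HetKO). In these comparisons 1, 3 and 1 of 6 samples correlated best with their own number. Between HetKO and WT every same-number correlation was positive, and the most alike pairs had the same numbers in both lines. The same-number correlations with HM had both signs. The reason was not tested. With the number as a block, 6889, 1206 and 4200 genes passed, and 1 factor between HM and HetKO in place of 2. Mixl1 between HM and WT no longer passed under the block (limma adjusted p = 0.0856).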

Other observations

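Cited1, a transcriptional co-regulator in the list of extraembryonic endoderm genes, was named after its values were seen. Its TPM was 558 and 560 in HM replicates 2 and 3, against 3.83 to 9.35 in the other 4 HM samples, 3.12 to 6.13 in WT and 2.5 to 6.05 in HetKO. Cited1 stood at 2.62 on the log2 scale in HM against WT (standard error 1.18, limma adjusted p = 0.0797). T was at 28.4 and 32.4 TPM and Eomes at 18.9 and 22.0 TPM in those replicates, inside the range of the other HM samples for T, while replicate 3 held the highest HM value of Eomes.

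Lef1 had its highest values in the same replicates, at 47.7 and 50.5 TPM against 20 to 29.8 in the other HM samples, and so did Wnt3, at 2.79 and 4.18 TPM against 0.95 to 2.39. Without HM replicates 2 and 3, T and Eomes still rose against WT, by 1.57 and 0.86 (limma adjusted p = 0.00271 and 0.000954), and Tbx6 and Gata6 fell by 1.05 and 0.86 (limma adjusted p = 0.000562 and 0.0146).

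In none of 33 groups of 6 samples did a lowest or highest value pass the critical value of Dixon's test, including T in HetKO. There 2 samples were high together, which a test of a single extreme value can miss, so the result does not show an even spread.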
